A study of Rattus norvegicus with 35 samples.

Results

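Livers of Wistar Han IGS rats fed propiconazole at 500 ppm were compared with livers of rats on feed holding 0 ppm of fungicide. Exposure ran from gestation day 6 to postnatal day 92, and so began before birth. Arrays were taken by treatment name and dose in their titles, and those with values were used: 3 at propiconazole 500 ppm (replicates 1, 2 and 5) and 7 controls, or 10 of the 35 arrays of the series. The submitters list 2 further animals at 500 ppm as left out of their final analysis, and these hold no values. The design text calls the arrays biological replicates of individual rats. Sex and shared litters are not stated in these sources. A p-value of the main fit rests on the spread between arrays within all 7 groups of the series, with each array taken as independent. Other groups of the series enter for comparison: propiconazole at 2500 ppm (n = 4), myclobutanil at 500 ppm (n = 5) and triadimefon at 500 ppm (n = 5), fed over the same days. The main fit also holds myclobutanil at 2000 ppm (n = 4) and triadimefon at 1800 ppm (n = 4), and all these groups add to its estimate of spread.

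Propiconazole is a triazole, a fungicide that blocks the lanosterol demethylase of fungi, whose rat counterpart is the cholesterol synthesis enzyme Cyp51. In liver, many triazoles are also handled as foreign compounds. The nuclear receptors CAR (gene Nr1i3) and PXR (gene Nr1i2) sense such compounds and switch on cytochromes P450 of the Cyp2b and Cyp3a families, carboxylesterases, glucuronosyltransferases and efflux transporters, while the aryl hydrocarbon receptor AhR switches on Cyp1a1. The comparison asks which of these and other liver transcripts differed between rats fed 500 ppm and controls.

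Each array measured liver RNA, copied from an oligo-dT primer, with 31042 probe sets other than control features, and 14217 genes were each read from 1 probe set. The deposited value is a score, and no source used here gives its scale, log base or centring. All values below are scores or differences of scores, with their standard error (SE), and none is a log2 fold change. The labels name testis as the extracted tissue in one protocol and liver in the titles and another protocol. In the controls all 14 measured hepatocyte markers had mean scores above 1, from 1.93 to 5.67, whereas 0 of 17 testis markers did and the highest of these, Prm1, was at 0.858. Arrays also differed in how far the 3′ probe sets of GAPDH and β-actin scored above their 5′ probe sets, a reading of RNA integrity called the 3′–5′ difference here. It was 0.564, 0.842 and 0.676 in the 3 treated arrays and ran from 0.50 to 2.12 in the controls. The GAPDH difference exceeded 0.9 in 4 of 7 controls (4 to 7) and in 0 of 3 treated arrays. Controls 5 to 7 also carry animal numbers above 3000, and the treated rats do not.

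No gene passed the test between propiconazole 500 ppm and control. In limma, with p-values adjusted over all 31042 probe sets, 0 were called at an adjusted p under 0.05 (0.0%), and the smallest adjusted p was 0.527. At an unadjusted p under 0.05, 628 probe sets were higher and 2238 lower. Among the 14217 genes, 224 were higher (1.58%) and 938 lower (6.6%) by that rule. A positive difference was found in 29.7% of the genes, and these shares are the background for list counts of this fit. All 3 treated arrays lay above all 7 controls for 46 genes (0.324%) and below all of them for 203 genes (1.43%). Every gene named below had an adjusted p of 0.527 or more in this fit, and its difference is given as a measured value. Replicate numbers were not used as pairs of rats, and a fit with the number as a block also called 0 probe sets.

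The lean toward lower scores moved with the 3′–5′ difference and with the scaling of the arrays. The median difference of all genes was -0.0334, with 4221 of 14217 above 0. Without the 9 arrays of all groups whose GAPDH difference exceeded 0.9, 4 of them controls, the median was -0.00182, and 543 probe sets were higher and 799 lower at an unadjusted p under 0.05. With the 3′–5′ difference, the mean over GAPDH and β-actin, as a covariate the split was 612 higher and 797 lower. After quantile normalisation it was 1167 higher and 1631 lower. Among animals numbered below 3000 it was 349 higher and 869 lower. Genes with a positive difference numbered 6878 of 14217 without the 9 arrays, 7482 with the covariate and 6621 after quantile normalisation. Those counts are the background for list counts of these fits. The part of RNA integrity in the lower scores was not tested beyond these fits.

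**Figure D1:**
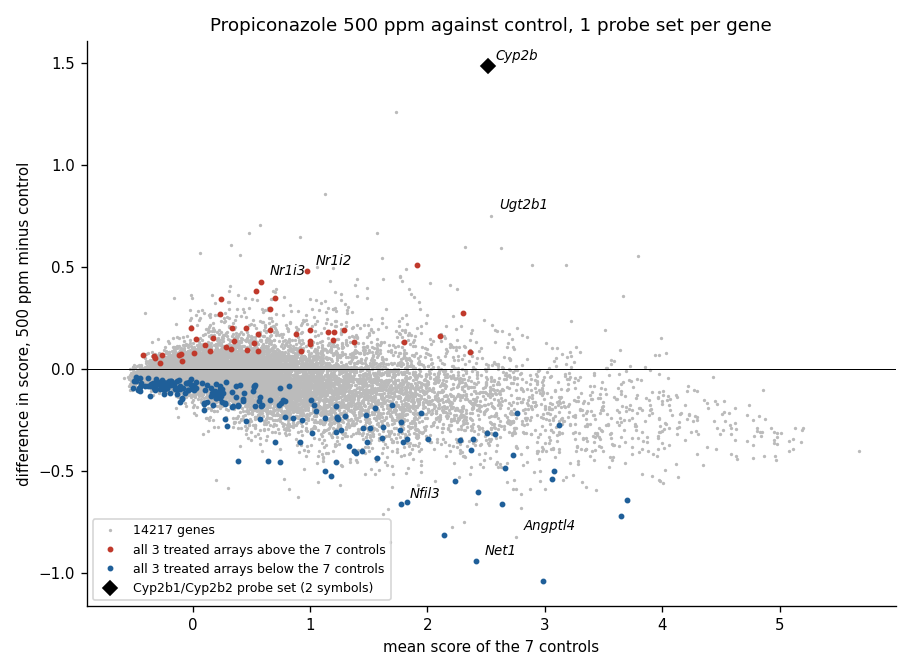
Difference in score between propiconazole 500 ppm (n = 3) and control (n = 7) for 14217 genes (grey points) against the mean score of the controls. Red points are the 46 genes with all 3 treated arrays above the controls, blue points the 203 genes with all 3 below, and the diamond is the Cyp2b1/Cyp2b2 probe set at 1.48; genes of high score lie mostly below 0.

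The largest difference among the foreign-compound genes was that of Cyp2b1 and Cyp2b2, the phenobarbital-inducible P450s of rat liver. They share 1 probe set, so their transcripts cannot be told apart here, and that probe set with 2 symbols is outside the 14217 genes. Its score was 3.70, 3.71 and 4.57 in treated replicates 1, 2 and 5. In the controls the lowest was 2.14, the median 2.60 and the highest 3.03. The 3 treated arrays lay above all 7 controls, and replicate 5 was the highest of the 3. The difference was 1.48 ± 0.340 (SE, 95% interval 0.784 to 2.18, adjusted p = 0.527). It ranged from 1.19 to 1.72 over 20 alternative fits. After quantile normalisation it was 1.72 ± 0.225 and passed (adjusted p = 0.000938), also with the 3′–5′ covariate added (1.68 ± 0.242, adjusted p = 0.00628). In the other 18 alternatives it did not pass. Against the 3 controls of low GAPDH difference it was 1.51.

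The start regions of both genes are printed because 1 probe set reads both. They are RefSeq sequences of build GRCr8 on the plus strand, Cyp2b1 at chr1:90645869-90646168 and Cyp2b2 at chr1:90722031-90722330, each with 250 bases before and 50 after the annotated start. With an offset of 17 bases, 275 of 283 aligned bases are identical (97.2%), and capitals mark the 8 that differ. The arrays measured transcripts, and no binding or methylation was measured in these windows.
Cyp2b1: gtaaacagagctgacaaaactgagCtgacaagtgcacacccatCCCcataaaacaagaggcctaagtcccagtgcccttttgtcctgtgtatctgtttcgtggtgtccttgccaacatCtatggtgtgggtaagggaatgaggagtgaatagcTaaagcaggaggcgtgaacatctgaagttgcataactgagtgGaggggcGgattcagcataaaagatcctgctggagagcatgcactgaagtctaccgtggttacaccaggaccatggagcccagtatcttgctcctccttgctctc
Cyp2b2: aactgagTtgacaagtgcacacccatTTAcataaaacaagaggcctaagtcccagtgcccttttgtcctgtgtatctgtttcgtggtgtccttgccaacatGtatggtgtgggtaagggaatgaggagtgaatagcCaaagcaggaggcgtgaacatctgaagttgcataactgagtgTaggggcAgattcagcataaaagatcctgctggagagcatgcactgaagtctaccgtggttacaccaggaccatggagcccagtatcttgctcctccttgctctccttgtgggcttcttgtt

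Other members of the same subfamily did not share this pattern. Cyp2b3 had scores of 4.01, 3.85 and 3.92 in the treated arrays against a control range of 3.74 to 4.60, a difference of -0.22 ± 0.394. Cyp2b12 differed by -0.06 ± 0.0253 (-0.03 against the controls of low GAPDH difference) and Cyp2b21 by 0.02 ± 0.0409. Their treated arrays overlapped the controls. Of 14 measured Cyp2b, Cyp2c and Cyp3a genes with a probe set of their own, 3 had positive differences. Their median difference was -0.14, beside -0.0334 for all genes, and it was -0.02 without the controls of high GAPDH difference. With the 3′–5′ covariate 11 of the 14 were positive (7482 of all 14217 genes), with a median of 0.23 (0.003 for all genes). After quantile normalisation 9 were positive (6621 of all 14217 genes), with a median of 0.06 (-0.005 for all genes). At an unadjusted p under 0.05, 0 were higher with the covariate, 3 after quantile normalisation and 5 with both. Of all 14217 genes 310, 480 and 322 were higher in the same order. With both, 1 of the 14 was lower, beside 403 of all genes.

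PXR and CAR themselves were the genes of largest positive difference among those chosen by the naming rule, which took genes with an unadjusted p under 0.01 and no overlap between groups (14 higher, 36 lower) and named the 10 most distant in each direction. Nr1i2, which encodes PXR, scored 1.39, 1.68 and 1.28 in the treated arrays and 0.816, 0.853 and 1.17 as the lowest, median and highest control. All 3 treated arrays were above every control, and the difference was 0.48 ± 0.137 (adjusted p = 0.536). The controls of Nr1i2 split with the 3′–5′ difference: the 3 of low GAPDH difference lay between 1.12 and 1.17 and the 4 of high difference between 0.816 and 0.853. Against the 3 alone the difference was 0.29. Nr1i3, which encodes CAR, scored 0.917, 1.25 and 0.879 in the treated arrays against 0.392, 0.604 and 0.763 in the controls. Here too the groups did not overlap, and replicate 2 was the highest of the 3. The difference was 0.43 ± 0.133 (adjusted p = 0.536), and 0.34 against the controls of low GAPDH difference.

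**Figure D2:**
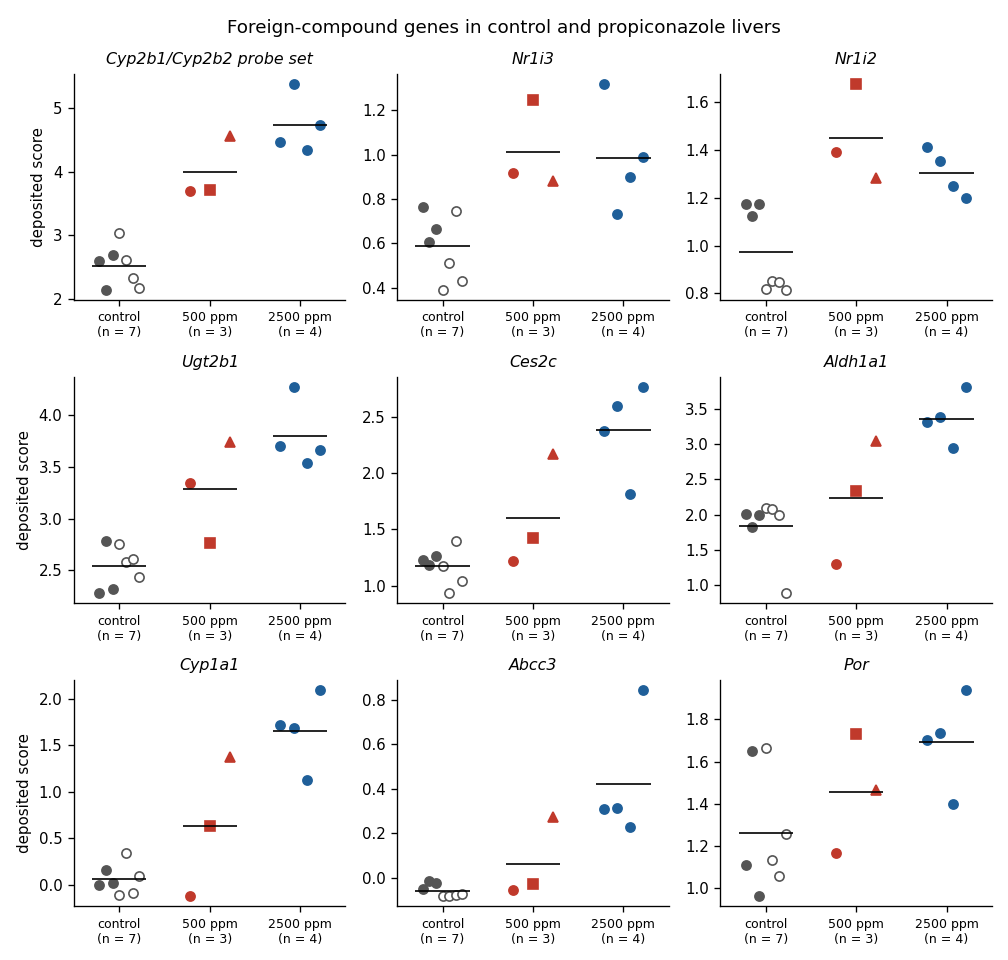
Deposited scores (vertical axes, no unit given) of the Cyp2b1/Cyp2b2 probe set and of 8 genes of foreign-compound sensing and metabolism in controls, propiconazole 500 ppm and propiconazole 2500 ppm; horizontal lines are group means. Open points are controls with a GAPDH 3′–5′ difference above 0.9, and the red circle, square and triangle are replicates 1, 2 and 5. Replicate 5 is the highest of the 3 for Cyp2b1/Cyp2b2, Ugt2b1, Ces2c, Aldh1a1, Cyp1a1 and Abcc3, and replicate 2 is the highest for Nr1i2, Nr1i3 and Por.

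Of 25 nuclear receptors and liver transcription factors measured, 4 were higher at an unadjusted p under 0.05 and 1 was lower (beside 1.58% and 6.6% of all genes). Nr0b2, the small heterodimer partner that represses bile acid synthesis, scored 1.14, 1.92 and 0.780 against control values of 0.137 to 1.27 (difference 0.71 ± 0.269, and 0.38 without replicate 2). Foxa3, a hepatic forkhead factor, differed by 0.26 ± 0.115, and by 0.06 against the controls of low GAPDH difference. Both overlapped the controls. Foxa2, another hepatic forkhead factor, was at 1.06, 1.01 and 1.44, below the control range of 1.5 to 2.08, with a difference of -0.65 ± 0.278. The CAR and PXR partner Rxra differed by 0.17 ± 0.0937 and Hnf4a, a master regulator of hepatocyte genes, by -0.36 ± 0.321. The median of the 25 was -0.02.

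Phase I enzymes other than P450s were mixed. Of 23 measured, 8 had positive differences (34.8%, beside 29.7% of all genes). At an unadjusted p under 0.05, 2 were higher (8.7%, beside 1.58%) and 0 lower (beside 6.6%). The 2 were Ces2c and Akr1c14. Ces2c, a carboxylesterase, scored 1.22, 1.42 and 2.17 in the treated arrays against 0.936 to 1.40 in the controls. Replicate 1 lay within the controls, replicate 2 just above them and replicate 5 well above. The difference was 0.43 ± 0.180 (adjusted p = 0.536), and it was 0.15 without replicate 5. Akr1c14, a hydroxysteroid dehydrogenase, scored 3.23, 3.09 and 3.35, a difference of 0.59 ± 0.261. Its controls split with the 3′–5′ difference, from 2.96 to 3.28 in the 3 of low and from 1.98 to 2.41 in the 4 of high GAPDH difference, and against the former the difference was 0.06. Aldh1a1, a retinaldehyde dehydrogenase, scored 1.30, 2.34 and 3.05 against control values of 0.888, 2.00 and 2.09 (lowest, median and highest). The 3 treated rats spanned a wider range than the 7 controls. The difference of 0.39 ± 0.281 (adjusted p = 0.607) became -0.02 without replicate 5.

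Por, which hands electrons to all microsomal P450s, scored 1.17, 1.73 and 1.47 and differed by 0.19 ± 0.184, or 0.05 without replicate 2. Its second probe set differed by 0.48. Alas1, the first enzyme of heme synthesis, differed by 0.21 ± 0.194. Both overlapped the controls. Hmox1, the heme-degrading oxygenase, was at 0.635, 0.671 and 0.733, below the lowest control of 0.760. Its difference was -0.25 ± 0.110, and -0.11 without the controls of high GAPDH difference. Uros, a synthase of the heme pathway, differed by -0.10, and by -0.01 against the controls of low GAPDH difference. Of 17 genes of P450 electron supply and heme turnover, Hmox1 and Uros were the 2 lower at an unadjusted p under 0.05, and 0 were higher. The share lower was 11.8%, beside 6.6% of all genes. Fdx1, the mitochondrial ferredoxin, did not meet that rule. It was below all controls, with a difference of -0.54 that was -0.26 against those of low GAPDH difference.

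Cyp1a1, the principal AhR-induced P450, differed widely between the treated rats. Its score was -0.123 in replicate 1, 0.627 in replicate 2 and 1.37 in replicate 5. Controls lay between -0.112 and 0.342, with a median of 0.0196. Replicate 1 was thus below every control, and replicates 2 and 5 were above every control. The difference of 0.57 ± 0.398 did not pass (adjusted p = 0.600), and without replicate 5 it was 0.19. Ahr, the receptor, scored 0.365, 0.157 and 0.508 against -0.190 to 0.226 in the controls. Only replicate 2 overlapped them, and the difference was 0.35 ± 0.114 (adjusted p = 0.536). It was 0.23 against the controls of low GAPDH difference. The second probe set of Ahr differed by -0.05. Cyp1a2, a constitutive liver P450 of the same pathway, differed by -0.13 ± 0.304. Of 10 AhR pathway genes, 6 were positive (60%, beside 29.7% of all genes). At an unadjusted p under 0.05, 1 was higher (10%, beside 1.58%) and 0 were lower. Against the controls of low GAPDH difference 4 of the 10 were positive (median -0.01), beside 6878 of all 14217 genes. With the 3′–5′ covariate 7 were positive, beside 7482, and after quantile normalisation 7, beside 6621.

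Among conjugating enzymes, Ugt2b1 stood furthest from the controls. This glucuronosyltransferase scored 3.35, 2.77 and 3.74, against control values of 2.28, 2.58 and 2.78 (lowest, median and highest). Replicate 2 was inside the control range and the other 2 were above it. The difference was 0.75 ± 0.253 (adjusted p = 0.536). After quantile normalisation it was 0.94 ± 0.160 and passed (adjusted p = 0.0424), the 1 alternative of 20 in which it did. Ugt2a1, a related enzyme, scored 0.658, 0.298 and 0.912, with the same order of the 3 rats, and differed by 0.26 ± 0.112, or 0.11 without replicate 5 and 0.13 against the controls of low GAPDH difference. Sult2a1, a hydroxysteroid sulfotransferase, was at -0.584, -0.553 and -0.530, below all controls. It differed by -0.11 ± 0.0332, or -0.07 against the controls of low GAPDH difference. Its scores are low on the array: the controls ran from -0.515 to -0.390, where the median control score of all genes was 0.308. Its probe set was among the dimmest 40%. Papss1, which makes the sulfate donor, differed by -0.16 ± 0.0526. Of 19 glucuronidation and sulfation genes, 2 were higher at an unadjusted p under 0.05 (10.5%, beside 1.58% of all genes). By that rule 3 were lower (15.8%, beside 6.6%), and the median difference was -0.11. With the dimmest 40% of probe sets removed, 2 of 17 were lower, beside 602 of 10645 genes.

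Glutathione transferases were evenly split in the fit without a covariate, 10 of 20 positive with a median of 0.005. With the 3′–5′ covariate 18 were positive (median 0.13), beside 7482 of all 14217 genes. After quantile normalisation 14 were (median 0.03), beside 6621. Against the controls of low GAPDH difference 13 were positive (median 0.05), beside 6878. In the first of these fits the 2 at an unadjusted p under 0.05, Gstm2 (0.51 ± 0.244) and Gstm3 (0.26 ± 0.111), were both higher (10%, beside 1.58% of all genes). Against the controls of low GAPDH difference they stood at 0.09 and 0.11. Of 18 transporters 1 was higher by that rule and 0 were lower. Slco1a1, an uptake carrier for organic anions, was that 1 (0.26 ± 0.123). It stood at 0.09 against the controls of low GAPDH difference and at 0.12 without replicate 5. Abcc3, an efflux pump for glucuronides, scored -0.0537, -0.0252 and 0.273 against -0.0809 to -0.0156 in the controls, so that replicate 5 alone was above them. Its difference of 0.12 ± 0.0877 was 0.02 without replicate 5. Abcb11, the bile salt export pump, was at 2.48, 2.51 and 2.64, just below the lowest control of 2.67. Of 21 genes under NRF2, which governs the response to oxidants, 10 were positive and 1 was lower, Hmox1. Ephx1, an epoxide hydrolase, scored 3.79, 3.23 and 4.05 (0.51 ± 0.304), and Nqo1, a quinone reductase, 1.88, 1.51 and 1.99 (0.41 ± 0.377). Ephx1 stood at 0.27 against the controls of low GAPDH difference.

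The highest of the treated animals differed between these genes. Replicate 5 was the highest of the 3 in 50 of the 104 members of 6 foreign-compound lists (48.1%) and in 2267 of all 14217 genes (15.9%). Replicate 2 was the highest for Nr1i2, Nr1i3 and Por. These shares describe 1 animal and carry no test, since genes of an array are not independent.

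Cyp51, the mammalian counterpart of the fungicide's target, lay within the controls in all 3 treated rats. It scored 2.93, 2.87 and 2.92 in the treated arrays, inside a control range of 2.68 to 3.74. The difference was -0.21 ± 0.290 (95% interval -0.81 to 0.38, adjusted p = 0.779), and its sign turned in 3 of 20 alternatives. Its second probe set differed by -0.02. Of 17 cholesterol synthesis genes 7 were positive and the median difference was -0.10, which was -0.01 without the controls of high GAPDH difference. Mvd, the mevalonate diphosphate decarboxylase, was the 1 at an unadjusted p under 0.05. Its scores of 0.407, 0.384 and 0.402 lay just below the lowest control of 0.417 (-0.18 ± 0.0578, and -0.09 against the controls of low GAPDH difference). Sqle, the squalene epoxidase before Cyp51 in the pathway, differed by 0.06 ± 0.111, and Lss, the lanosterol synthase, by 0.04 ± 0.0640. Cyp3a23-3a1, a PXR target, scored 4.08, 4.10 and 4.32 against 3.70 to 5.01 and differed by -0.11 ± 0.408 (adjusted p = 0.932). Its sign turned in 5 of 20 alternatives.

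Genes of lipid and bile acid metabolism differed in both directions. Angptl4, a secreted inhibitor of lipoprotein lipase, scored 1.70, 2.16 and 1.92 against a control range of 2.05 to 3.31. Only replicate 2 reached the controls, and the difference was -0.83 ± 0.249 (adjusted p = 0.536). It was -0.61 against the controls of low GAPDH difference. Acot12, an acyl-CoA thioesterase, differed by 0.49 ± 0.240 against all controls and by 0.09 against those of low GAPDH difference. These were the 2 of 34 PPARα targets at an unadjusted p under 0.05. Of 24 fatty acid synthesis genes 5 were positive and 1 was lower, the elongase Elovl6 (-0.16 ± 0.0651, and -0.25 against the controls of low GAPDH difference). Fasn, the fatty acid synthase, scored 2.36, 2.35 and 1.68 (-0.46 ± 0.267), and Scd, the stearoyl-CoA desaturase, 3.79, 3.43 and 1.69 (-0.45 ± 0.490). Replicate 5 was the low one in both, and it lay below all controls in both.

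Among 18 lipid droplet and fatty acid binding genes, Pnpla2, the adipose triglyceride lipase, differed by 0.25 ± 0.0930, the fatty acid carrier Cd36 by 0.29 ± 0.125 and Fabp5, a fatty acid binding protein, by -0.48 ± 0.180. Cd36 stood at 0.03 against the controls of low GAPDH difference, and Pnpla2 at 0.13 without replicate 2. In the bile acid list of 18, Acox2, a peroxisomal oxidase of bile acid side chains, differed by 0.66 ± 0.264 and Fgfr4, the receptor that restrains bile acid synthesis, by -0.22 ± 0.0999. Those stood at 0.22 and -0.02 against the controls of low GAPDH difference. Cyp7a1, the rate-limiting enzyme of bile acid synthesis, scored 1.98, 1.70 and 1.0 within a control range of 0.0756 to 2.25 (0.65 ± 0.410).

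In the retinoid list of 26, 1 gene was higher at an unadjusted p under 0.05 (3.85%, beside 1.58% of all genes). By that rule 3 were lower (11.5%, beside 6.6%). Bco1, which splits β-carotene, scored 1.27, 0.959 and 0.567 against a control median of 0.156 and a highest control of 1.06 (0.61 ± 0.244). Cyp26b1, a retinoic acid hydroxylase, differed by -0.54 ± 0.203, the receptor Rarb by -0.40 ± 0.190 and Stra6, a retinol carrier, by -0.12 ± 0.0405. Cyp26b1 and Stra6 stood at -0.16 and -0.07 against the controls of low GAPDH difference, and Cyp26b1 at -0.32 without replicate 1. The second probe set of Cyp26b1 differed by -0.12.

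Genes below the controls in all 3 treated rats were more numerous than genes above them. Net1, an exchange factor for the GTPase RhoA, scored 1.46, 1.21 and 1.74 against 2.11, 2.34 and 2.85 (lowest, median and highest control). The groups were separated by a clear gap, and the difference was -0.94 ± 0.299 (adjusted p = 0.536). Ifgga2l1 scored 1.0, 1.28 and 1.70 against 1.80 to 2.59 and differed by -0.81 ± 0.247. Nfil3, a basic leucine zipper repressor tied to the circadian clock, scored 1.02, 1.11 and 1.20 against 1.34, 1.93 and 2.03, a difference of -0.67 ± 0.222. Nrep scored 1.99, 1.89 and 2.03 against 2.42 to 2.92 and differed by -0.66 ± 0.203. The naming rule required that treated and control ranges not overlap, so the lack of overlap in these 4 follows from their selection.

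The remaining 6 of this set were Lurap1l (-0.53 ± 0.175), the Groucho corepressor Tle1 (-0.50 ± 0.121), Nav2 (-0.46 ± 0.149), the early response gene Ier5 (-0.46 ± 0.138), the potassium channel Kcnj15 (-0.45 ± 0.115) and Mfhas1 (-0.45 ± 0.108). Kcnj15 was the tightest, at -0.0736, -0.0572 and -0.0716 in the treated rats against 0.107 to 0.581 in the controls. Its other probe set differed by -0.05, the other 2 of Nav2 by 0.03 and 0.03 and those of Ier5 by -0.01 and 0.04, so for these 3 genes the difference rests on the probe set of highest score. Against the controls of low GAPDH difference they ranged from -0.19 for Nav2 to -0.75 for Net1. Nav2 controls split with that reading, 0.413 to 0.591 in the low and 0.891 to 0.993 in the high ones.

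**Figure D3:**
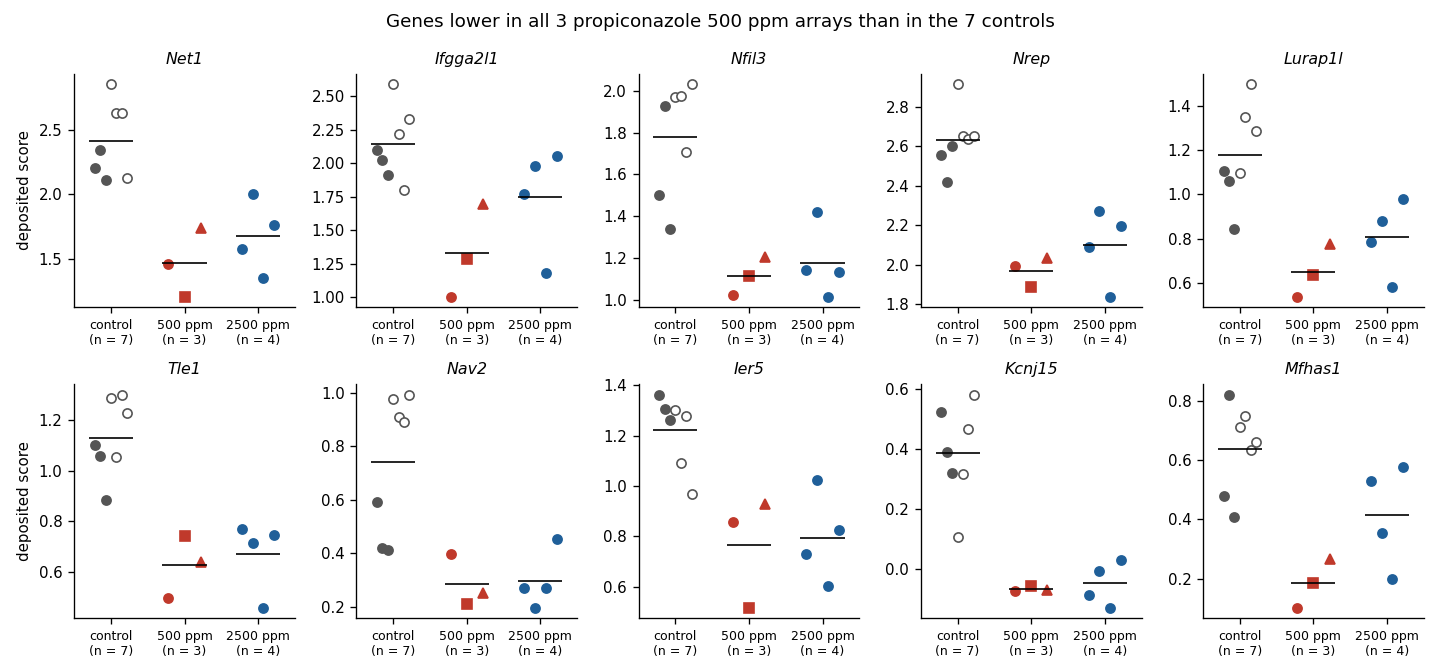
Deposited scores of the 10 genes of largest negative difference under the naming rule in controls (open points: GAPDH 3′–5′ difference above 0.9), propiconazole 500 ppm (circle, square and triangle: replicates 1, 2 and 5) and propiconazole 2500 ppm; lines are group means. All 3 red symbols lie below all 7 controls in each panel, as the rule required, from 1.21 to 1.74 against 2.11 to 2.85 for Net1.

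Hhex, a homeobox factor of liver development, had the largest negative difference of all 14217 genes, and it is named here after its values were seen because its unadjusted p of 0.0181 put it outside the naming rule. It scored 1.74, 1.87 and 2.22 against controls from 2.41 to 3.35. The groups did not overlap, and the difference was -1.04 ± 0.413. It was -1.01 against the controls of low GAPDH difference and -0.71 with the 3′–5′ covariate. Rgs3, a regulator of G protein signalling, was chosen in the same way and scored 0.653, 0.762 and 1.07 against a control median of 1.88 (-0.85 ± 0.214). Control 7, at 0.849, lay inside the treated range. Mug1, an acute phase inhibitor of proteases, had the largest positive difference of the 14217 genes, 1.26 ± 0.794. Its treated scores of 3.41, 2.38 and 3.18 lay inside the control range of -0.0751 to 3.63. The controls of low GAPDH difference held 2.60 to 3.63 and those of high difference -0.0751 to 1.40, and against the former the difference was -0.19.

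Beyond PXR and CAR, 8 genes above all controls were named by the rule, with differences from 0.19 to 0.38. Aopep, an aminopeptidase, scored 0.968, 0.978 and 0.824 against 0.368 to 0.665 (0.38 ± 0.10, adjusted p = 0.536). Shld2, part of the shieldin complex of DNA break repair, differed by 0.35 ± 0.106, with replicate 2 the highest at 1.38, and by 0.18 without that rat. Pla2g12a, a phospholipase, differed by 0.34 ± 0.0867, or 0.22 without replicate 1. Pura, a nucleic acid binding protein, differed by 0.27 ± 0.0617, and by 0.15 against the controls of low GAPDH difference. Idua, a lysosomal iduronidase, Slc16a6, a carrier of the monocarboxylate family, Dhrs1, a short-chain dehydrogenase, and Ttc23 differed by 0.20, 0.20, 0.19 and 0.19. Slc16a6 stood at 0.220, 0.170 and 0.175 in the treated rats and at most at 0.0337 in the controls. The second probe sets of Aopep, Shld2 and Slc16a6 differed by -0.06, 0.03 and 0.04. Ddc, the aromatic amino acid decarboxylase, also lay above all controls, at 2.65, 2.10 and 2.49 against 1.77 to 2.00, and differed by 0.51 ± 0.201. Its unadjusted p of 0.0178 kept it outside the rule, and it was chosen after its values were seen.

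Of 19 immediate early genes 3 were positive, beside 29.7% of all genes. Against the controls of low GAPDH difference 7 were positive, beside 6878 of all 14217 genes. Against all 7 controls, 0 of the 19 were higher at an unadjusted p under 0.05 and 5 were lower (26.3%, beside 6.6% of all genes). Ier2 scored 0.596, 0.857 and 0.607 against 0.682 to 1.76 (-0.57 ± 0.223), the growth regulator Myc 0.0225, 0.0820 and 0.461 against 0.248 to 1.09 (-0.40 ± 0.167), and the phosphatase Dusp6 1.04, 1.0 and 1.30 against 0.888 to 2.27 (-0.58 ± 0.259). The treated rats overlapped the controls in all 3. Against the controls of low GAPDH difference Ier2 stood at -0.18 and Dusp6 at -1.01. Egr2 differed by -0.06 ± 0.0282, and Ier5 is described above. The list median was -0.09, and -0.06 without the controls of high GAPDH difference. Of 24 stress and growth arrest genes 8 were positive (33.3%, beside 29.7% of all genes). At an unadjusted p under 0.05, 4 of the 24 were lower (16.7%, beside 6.6% of all genes). The list median of -0.09 became 0.01 with the 3′–5′ covariate. Phlda3, a p53 target, scored 1.10, 0.986 and 0.810 against 1.18 to 1.38 (-0.30 ± 0.110), and Dnajb1, a heat shock cochaperone, 1.25, 1.39 and 1.16 against 1.42 to 1.85 (-0.34 ± 0.159). Both lay below all controls, though the second probe set of Dnajb1 differed by 0.02. Cdkn1a, the p21 cell cycle inhibitor, differed by -0.47 ± 0.229 and Atf3 by -0.11 ± 0.0529, with overlap in both. Those stood at -0.16 and -0.06 against the controls of low GAPDH difference, and Cdkn1a at -0.30 without replicate 1.

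Of 26 genes of growth hormone action, IGF signalling and sex-biased liver expression, 4 were positive, beside 29.7% of all genes. At an unadjusted p under 0.05, 4 were lower (15.4%, beside 6.6% of all genes) and 0 higher. With the 3′–5′ covariate 12 of the 26 were positive and 2 lower by that rule, beside 7482 and 306 of all 14217 genes. After quantile normalisation 10 were positive and 2 lower (6621 and 818 of all genes). Against the controls of low GAPDH difference 8 were positive and 5 lower (6878 and 318 of all genes). The list median was -0.15, and in these 3 fits it was -0.01, -0.04 and -0.07. Igfals, the carrier subunit of circulating IGFs, scored 2.35, 2.15 and 2.03, below all controls (2.42 to 2.85), and differed by -0.49 ± 0.193. Cish, a feedback inhibitor of growth hormone signalling, scored 0.103, 0.113 and 0.579 against a control median of 0.990 and differed by -0.63 ± 0.300. Its lowest control, at 0.0116, was below every treated array. The prolactin receptor Prlr differed by -0.49 ± 0.226, and Sult2a1, whose probe set is dim, is given above. With the dimmest 40% of probe sets removed, 3 of 23 genes of this list were lower, beside 602 of 10645 genes. Cish, Igfals and Prlr stood at -0.83, -0.41 and -0.78 against the controls of low GAPDH difference.

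Single genes of other lists reached an unadjusted p under 0.05. Psmb8, an immunoproteasome subunit, scored 1.85, 1.43 and 1.79, below all controls (1.94 to 2.72), and differed by -0.55 ± 0.204. The chemokine Cxcl9 of the same list of 26 interferon genes differed by 0.21 ± 0.0983, or 0.11 without replicate 5. Glul, glutamine synthetase, differed by -0.44 ± 0.166 and was the 1 of 32 urea cycle and amino acid genes. Its other probe sets differed by -0.17 and 0.42. Crym, a thyroid hormone binding protein, differed by -0.45 ± 0.183, the circadian factor Tef by -0.15 ± 0.0743, the pyruvate dehydrogenase kinase Pdk1 by -0.24 ± 0.0903, and Pfkfb1, which sets fructose bisphosphate levels in liver, by 0.45 ± 0.199. Pfkfb1 stood at 0.21 without replicate 2. Against the controls of low GAPDH difference Glul, Crym and Tef stood at -0.26, -0.29 and -0.09. Hsd11b2, a glucocorticoid dehydrogenase, differed by -0.28 ± 0.117. Of 33 cell cycle genes 2 were lower (6.06%, beside 6.6% of all genes), Tyms (-0.09 ± 0.0330) and Mcm2 (-0.11 ± 0.0514), and 0 higher. Those stood at -0.04 and 0.001 against the controls of low GAPDH difference.

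Lists of abundant hepatocyte transcripts scored lower as groups against all 7 controls, a direction that turned in 5 of 6 lists with the 3′–5′ covariate. The median difference was -0.30 over 14 hepatocyte markers (1 positive), -0.29 over 21 acute phase genes (5 positive), and -0.29 over 27 complement and coagulation genes (2 positive). In limma 0 genes of these 3 lists had an unadjusted p under 0.05. It was -0.25 over 17 apolipoprotein genes, -0.24 over 24 genes of the unfolded protein response and -0.19 over 30 nuclear subunits of oxidative phosphorylation, which held 1 (Apoa4), 2 (Sdf2l1 and Syvn1) and 1 (Cox5a) genes at an unadjusted p under 0.05, all lower. Alb, the serum albumin gene, scored 5.36, 5.24 and 5.22 within a control range of 4.84 to 6.74 (-0.40 ± 0.568). These medians moved with the 3′–5′ difference: against the controls of low GAPDH difference they were -0.15, -0.18, -0.13, -0.14, -0.14 and -0.03 in the same order. With the covariate they were 0.15, 0.11, 0.04, 0.10, -0.07 and 0.10, and after quantile normalisation 0.02, 0.00, -0.07, -0.04, -0.09 and -0.01. The unfolded protein list stayed below 0 in each of these fits.

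**Figure D4:**
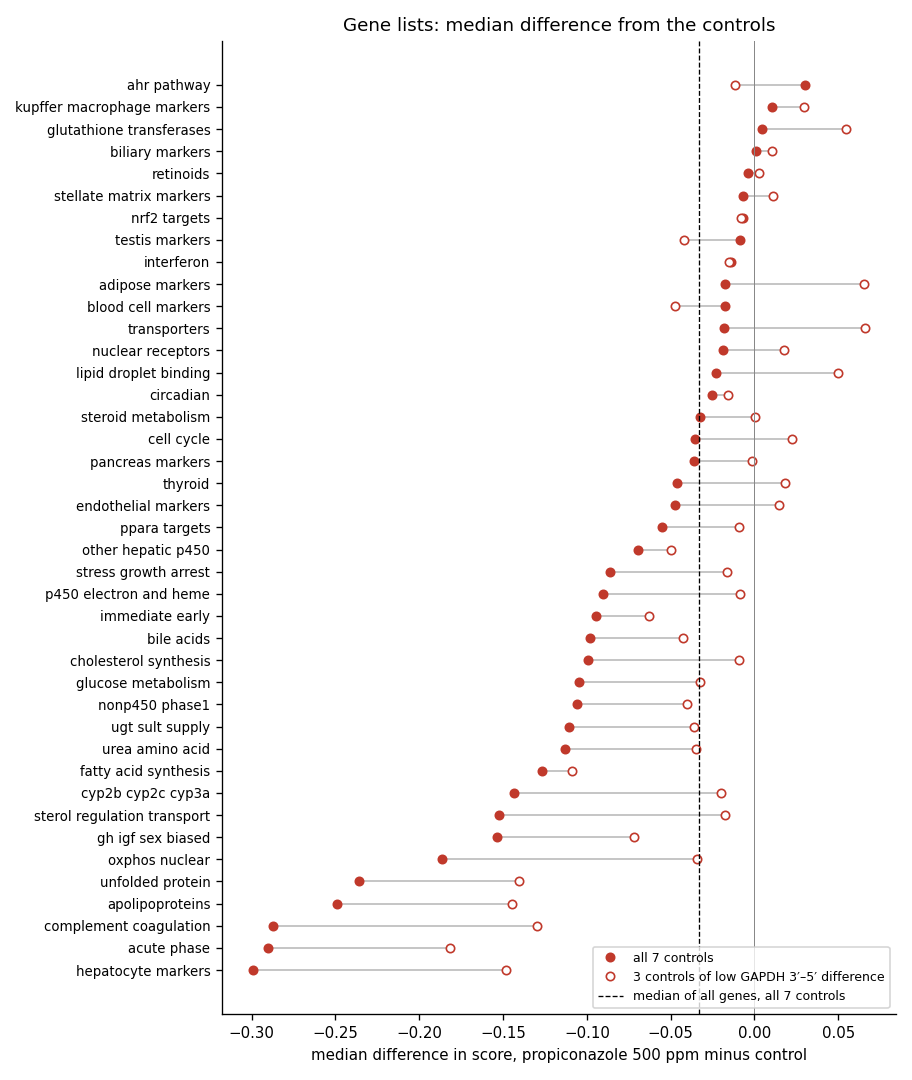
Median difference in score, propiconazole 500 ppm minus control, for each of 41 gene lists (horizontal axis; lists ordered by value). Filled points use all 7 controls, open points the 3 controls with a GAPDH 3′–5′ difference of 0.9 or less, and the dashed line is the median of all genes, -0.0334; hepatocyte markers move from -0.30 to -0.15, and stand at 0.15 with the 3′–5′ covariate.

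Markers of other cells gave small median differences. They were 0.01 over 15 Kupffer cell markers, -0.01 over 18 stellate and matrix markers, 0.001 over 9 biliary markers, -0.05 over 12 endothelial markers and -0.02 over 11 blood cell markers. In whole liver, fewer cells of a type and less RNA per cell cannot be told apart. The macrophage gene Laptm5 (-0.20 ± 0.0832) was the 1 of these markers at an unadjusted p under 0.05, and it stood at -0.06 against the controls of low GAPDH difference. Markers of pancreas (13), testis (17) and adipose tissue (7) had medians of -0.04, -0.01 and -0.02.

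The higher feed level was compared directly with 500 ppm, since 0 arrays of both propiconazole groups have a GAPDH difference above 0.9. In limma 0 of 31042 probe sets differed at an adjusted p under 0.05 (0.0%), and 219 were higher and 146 lower at 500 ppm at an unadjusted p under 0.05. Among genes 165 had an unadjusted p under 0.05 (1.16%). Cyp2b1/Cyp2b2 averaged 3.99 ± 0.50 (SD, n = 3) at 500 ppm and 4.74 ± 0.462 (n = 4) at 2500 ppm, a difference of -0.74 ± 0.377 (95% interval -1.52 to 0.03). The intervals here are not adjusted over probe sets. At 500 minus 2500 ppm Aldh1a1 differed by -1.14 ± 0.311 (interval -1.78 to -0.50), Cyp1a1 by -1.03 ± 0.440 (-1.93 to -0.13), Ces2c by -0.78 ± 0.199 (-1.19 to -0.37) and Abcc3 by -0.36 ± 0.0978 (-0.56 to -0.16). All had an adjusted p of 1.0, so none passed. Without replicate 4 at 2500 ppm, whose score of 0.843 stood apart from the other 3, Abcc3 differed by -0.22. Without replicate 1 at 500 ppm Aldh1a1 differed by -0.67 and Cyp1a1 by -0.66. For these 4 genes replicate 5 at 500 ppm came nearest to the group at 2500 ppm.

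Nr1i2 and Nr1i3 averaged 1.45 and 1.01 at 500 ppm and 1.30 and 0.984 at 2500 ppm. Their differences were 0.15 (interval -0.17 to 0.45) and 0.03 (-0.27 to 0.33). Net1, Nfil3 and Nrep averaged 1.47, 1.11 and 1.97 at 500 ppm and 1.67, 1.18 and 2.10 at 2500 ppm, with intervals of the difference of -0.89 to 0.47, -0.57 to 0.44 and -0.59 to 0.33. The missed threshold does not show that both feed levels act alike.

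Myclobutanil and triadimefon carry the same triazole ring on different scaffolds. Myclobutanil is a nitrile, triadimefon a ketone and propiconazole a cyclic ketal. At the matched level of 500 ppm, propiconazole minus myclobutanil gave 0 probe sets at an adjusted p under 0.05 in limma (0.0%), with 282 higher and 1050 lower at an unadjusted p under 0.05 and 576 genes by that rule (4.05%). Propiconazole minus triadimefon gave 0 as well (0.0%), with 613 higher, 159 lower and 348 genes (2.45%). Of the 5 myclobutanil arrays 2 have a GAPDH difference above 0.9, and 0 of the 5 triadimefon arrays do.

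Cyp2b1/Cyp2b2 averaged 3.99 with propiconazole, 3.96 with myclobutanil and 4.00 with triadimefon, and the intervals of propiconazole minus each were -0.71 to 0.77 and -0.75 to 0.73. Cyp1a1 averaged 0.625 with propiconazole, 0.235 with myclobutanil and 1.18 with triadimefon, where the intervals were -0.47 to 1.25 and -1.42 to 0.31. Nr1i2 averaged 1.45, 1.14 and 1.22 in the same order. Propiconazole exceeded myclobutanil by 0.31 (interval 0.01 to 0.61, adjusted p = 0.855) and triadimefon by 0.23 (-0.07 to 0.53). Ugt2b1 averaged 3.29, 3.29 and 3.23, with intervals of -0.56 to 0.54 and -0.49 to 0.61. Without the 2 myclobutanil arrays of high GAPDH difference, propiconazole exceeded myclobutanil by 0.57 for Cyp2b1/Cyp2b2, 0.15 for Nr1i2 and 0.42 for Ugt2b1. None of these 4 passed between the compounds, and a missed threshold does not show that the compounds act alike.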

How the data were processed

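Affymetrix arrays of the rat genome measured liver RNA of single rats, per the labels' protocols. The deposited score per probe set was made by the authors in a way not given in the sources used here. Of 32 arrays with values, all 7 groups entered 1 linear model on the scores as deposited (limma 3.58.1 in R 4.3.3, lmFit, contrasts and eBayes at their defaults, 26.99 degrees of freedom). Tests were two-sided and adjusted by the Benjamini-Hochberg method over 31042 probe sets, after removal of 57 control probe sets. The platform annotation gave 1 symbol to 20826 probe sets, several to 436 and none to 9780, and Entrez identifiers of 20758 matched the rat gene table. A gene with several probe sets was read from the one of highest mean score. Genes were named by the rule in the text (p under 0.01, no overlap), as up to 3 members per list at p under 0.05, or as 9 foreign-compound and sterol genes given in every case. Foxa2, Foxa3, Ugt2a1, Ephx1, Mug1, Cish, Dusp6, Egr2 and Cdkn1a met none of these rules and were chosen after their values were seen. Further list members in the text, such as Rarb, Fdx1, Fasn and Scd, were also outside the rules. Members and lists were chosen with earlier results of these data known. The fit was tested on simulated data. The number of arrays limits the precision. Treated replicates 1, 2 and 5 correlated with the same-numbered controls at 0.255, -0.236 and -0.0380 (deviations from group means). Replicate 1 matched array 1 best among the controls, at propiconazole 2500 ppm and with triadimefon 500 ppm. Replicates 2 and 5 matched a same-numbered array best in no group, and numbers were not used as pairs.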

Additional observations from a re-analysis of the deposited data

Results flagged for a closer look

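In 105 groups of 4 to 10 arrays checked among the named genes, 6 held 1 array set apart from the rest by Dixon's gap test, and chance gives about 1 in 20 groups. Control 1 scored -0.473 for Cyp2b12, with the nearest control at -0.405, and -0.0803 for Stra6, with the nearest at 0.132. Control 5 scored 0.0957 for Atf3 (nearest -0.137). Control 7 scored 2.72 for Psmb8 (nearest 2.27) and 0.888 for Aldh1a1 (nearest 1.83). For Abcc3, replicate 4 at propiconazole 2500 ppm scored 0.843 (nearest 0.314). The groups of 3 treated arrays were not checked in this way.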

How the results depend on the processing

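The count of called probe sets against the controls was 0 and became 2 after quantile normalisation, 1 without the arrays of high GAPDH 3′–5′ difference and 1 with quantile normalisation and the 3′–5′ covariate together. Leaving out 1 array at a time gave 0 to 1, the 1 being Filip1 (-0.146, adjusted p = 0.0211) without control 1. It stayed at 0 with the dimmest 40% of probe sets removed, with a fit of only the groups compared, under trend and robust moderation, with the animal number series as a block or only animals below 3000, with the 3′–5′ covariate alone and with the replicate block. The other 3 comparisons gave 0 under every alternative run, the replicate block included. Cyp2b12, Sult2a1, Egr2, Atf3 and Tyms were among the dimmest 40% of probe sets and have no value with those removed. The sign turned for Cyp51 with the covariate (0.194), without the high arrays (0.0366) and with quantile normalisation plus covariate (0.109). It turned for Cyp3a23-3a1 after quantile normalisation (0.130), with the covariate (0.441), without the high arrays (0.119), with both (0.247) and without control 4, with a range of -0.202 to 0.0161 over single arrays left out. Mcm2 turned without the high arrays (0.00134) and Aldh1a1 without treated replicate 5, with a range of -0.0182 to 0.854 over single arrays left out. The cause was not tested. The 3 treated arrays and an unknown score scale limit every value here.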

Other observations

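The smallest unadjusted p of the comparison, 3.8e-05, belonged to a probe set without a gene name in the annotation. It scored -0.00336, 1.22 and 0.0321 in treated replicates 1, 2 and 5 and between 1.12 and 2.16 in the controls, so that replicate 2 lay within the control range and the other 2 far below it. The difference was -1.38 ± 0.281 (adjusted p = 0.527 in limma), and the mean at propiconazole 2500 ppm was 0.169.

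Dock11, an exchange factor for Cdc42, was the 1 probe set called without the arrays of high GAPDH 3′–5′ difference (0.754 ± 0.106, adjusted p = 0.0324). Against all 7 controls, which ran from -0.144 to 0.861, it differed by 0.36.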
